A study of Mus musculus with 9 samples.

Results

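The genes described are those of the AMPA receptor and its auxiliary proteins: the pore-forming subunits Gria1, Gria2, Gria3 and Gria4, the transmembrane AMPA receptor regulatory proteins (TARPs) Cacng2, Cacng3 and Cacng8, the cornichons Cnih2 and Cnih3, and Shisa9. They were taken by name and are 10 of the 37620 genes in the counts. All 10 were found and all 10 passed the filter on low counts, which kept 15069 genes. The samples are ribosome-associated RNA of parvalbumin interneurons (PV INs) of hippocampal CA3/CA2, obtained by immunoprecipitation of an HA tag. The question asked of these samples was which transcripts of PV INs differ after Ablim3 is knocked down in dentate gyrus (DG), upstream of CA3. The control group, shNT, had 5 samples from mice given a lentivirus with a non-targeting shRNA in DG, and the group called shRNA had 4 samples from mice given a lentivirus with an shRNA against Ablim3.

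Every mouse of both groups, controls included, carried PV-Cre and Rpl22HA, so Cre under the parvalbumin gene's control turned on the HA-tagged ribosomal protein RPL22. The allele is written Rpl22HA/HA in the series' description and f/f in part of the study's methods. The mice were 2 months old, both sexes were used, tissue was taken 2 weeks after injection, and each sample pooled 6 mice, so the spread between samples is a spread between pools. Cre in this design is restricted by parvalbumin expression and not by region, whereas the region was set by dissection, and RNA of other cells can be carried along with the tagged ribosomes.

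AMPA receptors carry most fast excitatory transmission in the brain and are tetramers of GluA1 to GluA4, the products of Gria1 to Gria4. GluA2 is known for setting calcium permeability, because its RNA is edited so that a glutamine codon in the pore loop, at the Q/R site, is read as arginine. Receptors without GluA2 let calcium through and are blocked by intracellular polyamines, and PV INs are known for a low GluA2 content relative to pyramidal neurons. TARPs and cornichons bind the subunits, help them reach the surface and the synapse and slow the decay of the current, whereas Shisa9 (CKAMP44) slows recovery from desensitization.

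The genomic sequence around the Q/R site shows how alike the subunit genes are at this position and what the counts cannot resolve. Each line gives the last 53 bases of the exon that holds the site, read on the coding strand of the mm9 reference, with the Q/R codon in capitals.
Gria1: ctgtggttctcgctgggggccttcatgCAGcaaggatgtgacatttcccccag
Gria2: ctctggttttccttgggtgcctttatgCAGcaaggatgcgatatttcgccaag
Gria3: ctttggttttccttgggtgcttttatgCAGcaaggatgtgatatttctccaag
Gria4: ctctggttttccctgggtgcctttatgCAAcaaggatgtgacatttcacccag
These lie at chr11:57056569-57056621 on the plus strand, chr3:80510810-80510862 on the minus strand, chrX:38963415-38963467 on the plus strand and chr9:4464114-4464166 on the minus strand. The site falls in coding exon sequence, in exon 11 of the annotated Gria1, Gria2 and Gria3 transcripts and exon 12 of that of Gria4, and 23 bases follow it before the exon ends in all 4 genes. Gria2 carries the unedited glutamine codon CAG in the genome, as Gria1 and Gria3 do, and Gria4 carries CAA, which also encodes glutamine. The Gria2 stretch matched that of Gria3 at 49 of 53 bases, that of Gria4 at 47 and that of Gria1 at 43. Counts per gene hold no base calls, so neither editing at this codon nor the flip and flop exons could be measured, and reads that aligned at more than 1 place were not counted by the authors.

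Depth was ample for most members, and the samples differed in their makeup. Between 18281719 and 34578837 reads were counted on genes per sample. The reads that aligned uniquely but outside annotated exons made up 9.76% to 18.6% of unique reads in the shNT samples and 12.4% to 27.2% in the shRNA samples, with shNT replicate 2, shRNA replicate 1 and shRNA replicate 4 the highest at 18.6%, 19.8% and 27.2%. Ablim3 lay between 12.1 and 22.6 CPM (gene counts scaled to a common library size, here by edgeR's TMM method) in the shNT samples and between 13.7 and 21.7 CPM in the shRNA samples, but the RNA came from PV INs and not from DG, where the shRNA was delivered, so this does not check the knockdown. Pvalb was detected in every sample, from 678 to 1375 CPM in the shNT samples and from 310.02 to 705 CPM in the shRNA samples. All 12 PV IN markers were above 0 in every sample and all 12 had a negative log2 fold change (shRNA against shNT, median -0.38), but 0 were called and 3 had an unadjusted p under 0.05. Over all genes tested, 1.74% were called higher (FDR under 0.05 and at least 1.5-fold) and 0.0133% lower, and 13.4% were lower at an unadjusted p under 0.05 and 20.7% higher. The summed level of the PV IN markers was 9643 to 14757 CPM in the shNT samples and 4666 to 11311 CPM in the shRNA samples, lowest in shRNA replicate 4. In these bulk samples, fewer cells of a type, less RNA per cell and a larger part of RNA carried along from other cells cannot be told apart.

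Markers of other cells were also present, and none of the markers in these lists was at 0 in any sample. The summed markers of CA3 and CA2 pyramidal neurons did not overlap between groups, at 807 to 1745 CPM in the shNT and 1812 to 2246 CPM in the shRNA samples. Of these 10, 2 were called higher, Grik4 and Cpne4, and 8 had a positive log2 fold change (median 0.69). An unadjusted p under 0.05 (edgeR quasi-likelihood test) was found for 8 of 10, all higher, against 20.7% of all genes. Of all single genes tested, 8.97% had every shRNA value above every shNT value. The summed markers of oligodendrocyte precursors did not overlap either, at 38.3 to 68.1 and 76.8 to 110.7 CPM. Of these markers 3 of 5 were called higher, Pdgfra, Olig2 and Gpr17, against 1.74% of all genes tested. Astrocyte markers summed to 1074 to 1525 and 1417 to 5624 CPM, with the highest value in shRNA replicate 4. None of the 10 was called, but all 10 had a positive log2 fold change (median 1.39) and 9 had an unadjusted p under 0.05. The same held for oligodendrocyte markers, of which 7 of 7 were positive (median 0.77) and 6 had an unadjusted p under 0.05. Oligodendrocyte markers ranged over 764 to 2384 and 1451 to 3029 CPM, microglial markers over 42.4 to 100.01 and 75.6 to 86.9 CPM, endothelial markers over 61.02 to 228 and 36.6 to 495 CPM, DG granule cell markers over 91.1 to 150.3 and 137 to 161 CPM, and markers of other interneurons over 568 to 937 and 369 to 746 CPM. Of these 5 lists, 1 gene was called, Cnr1 among the other interneuron markers, which was higher. Of the 5 DG granule cell markers, 4 had a positive log2 fold change (median 0.96) and 3 were higher at an unadjusted p under 0.05. Such a p was found for 3 of 7 microglial, 2 of 8 other interneuron and 0 of 6 endothelial markers, all higher. Genes named from the marker lists other than Pvalb were chosen after their values were seen. Pyramidal neurons and oligodendrocyte precursors are known to express AMPA receptor subunits, and the part of these markers in the results that follow was not tested.

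The members differed widely in level. To compare genes, TMM-scaled CPM was divided by the length of each gene's exons in kb. In the shNT samples the highest was Cnih2 at 354 ± 48.6 CPM per kb (SD, n = 5), followed by Gria1 at 189 ± 47.8 and Cacng3 at 92.8 ± 12.9. Gria2 at 51.4 ± 10.4, Gria4 at 45.1 ± 10.2 and Cacng2 at 38.9 ± 1.90 CPM per kb came next, and neighbours among these 3 overlapped in their samples. Gria3 at 22.6 ± 5.51 and Cnih3 at 17.7 ± 3.08 CPM per kb overlapped with each other, and so did Shisa9 at 2.61 ± 0.668 and Cacng8 at 1.99 ± 0.401. At every other step in this order the samples of the neighbours did not overlap. Gria1 thus had the highest level of the subunits in the shNT samples, and its lowest shNT sample, at 117 CPM per kb, lay above the highest Gria2 value, at 66.7.

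In the shRNA samples the order was the same except that Gria2, at 99.2 ± 23.5 CPM per kb (SD, n = 4), stood above Cacng3, at 69.9 ± 21.9, and the samples of these neighbours overlapped. Cnih2 at 298 ± 22.9 and Gria1 at 191 ± 49.9 CPM per kb were again the highest, and Shisa9 at 3.56 ± 0.686 and Cacng8 at 2.56 ± 0.389 the lowest. The order depends on the gene models. The Cacng8 model, 0.663 kb long, holds no UTR, and the Shisa9 model, 1.275 kb long, is nearly all coding sequence (1.272 kb). The annotation the authors counted on is not given, so it is not known whether reads from parts missing in these models were counted. The part of this in the low levels of both genes was not tested. With the same CPM, UTR reads included, divided by kb of coding sequence, Cacng2 (221 in the shNT mean) stood above Gria2 (129) and Cacng3 (149.6). The UTRs of Cacng2 are long, which raises its value on this scale.

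**Figure D1:**
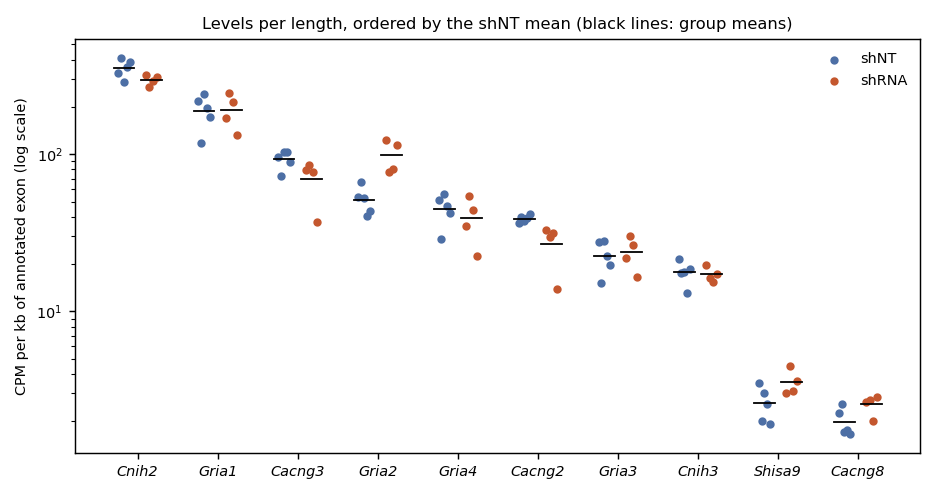
Level of the 10 genes in each sample, as TMM-scaled CPM per kb of exon on a log axis, with shNT and shRNA samples as separate points and black lines at the group means. Cnih2 and Gria1 lie highest and Shisa9 and Cacng8 lowest in both groups. The groups are apart for Gria2, higher in the shRNA samples, and for Cacng2, lower in them.

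Among the subunits, Gria2 was higher in the shRNA samples, whereas Gria1, Gria3 and Gria4 did not pass the test. A gene was called where edgeR's quasi-likelihood test gave an FDR under 0.05 after Benjamini-Hochberg adjustment over the 15069 genes and the change was at least 1.5-fold. By this rule 1.74% of all genes tested were called higher in the shRNA samples and 0.0133% lower, and of the 10 members 1 was called higher and 0 lower. With no adjustment, p was under 0.05 for 2 members, Gria2, which was higher, and Cacng2, which was lower, against 20.7% and 13.4% of all genes. The shRNA samples all exceeded the shNT samples for 1 member, Gria2, against 8.97% of all genes, and below for 1, Cacng2, against 6.68%. The members' counts by these last 2 measures are near the background shares. The median log2 fold change of the members was -0.01, with 5 of 10 positive, beside 0.11 for all genes tested.

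**Figure D2:**
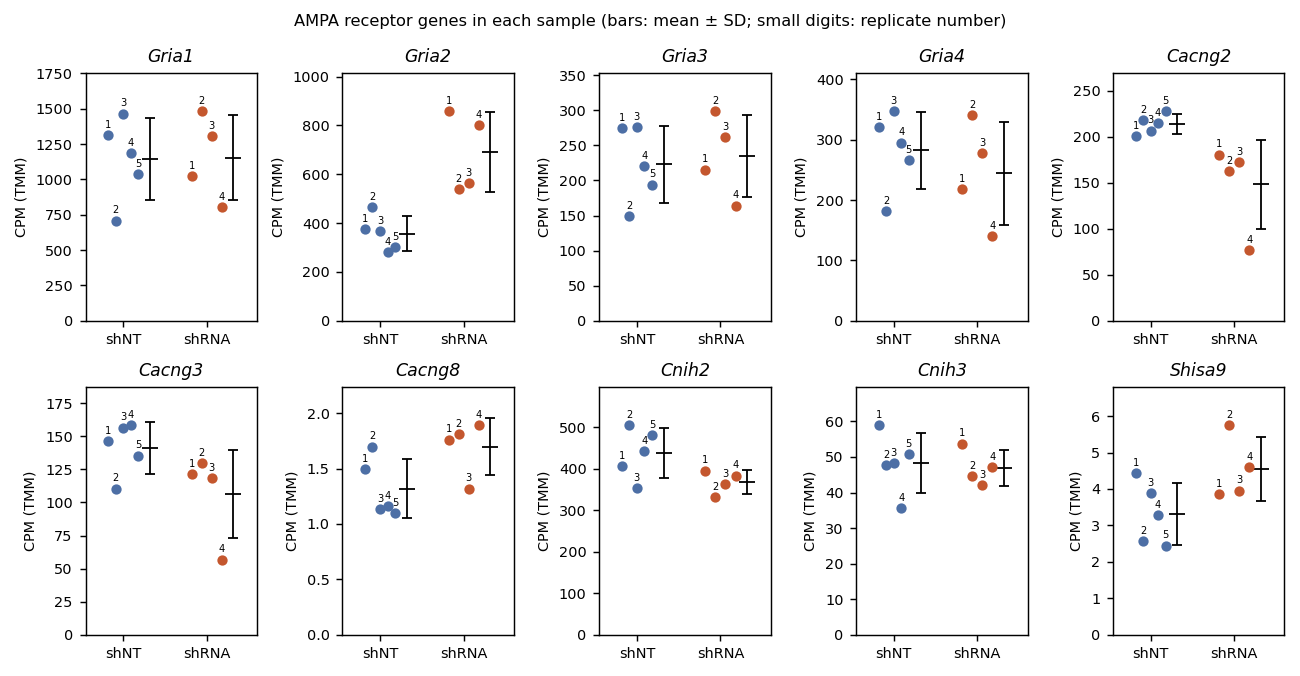
TMM-scaled CPM of each of the 10 genes in every sample, shown as 1 panel per gene with its own axis from 0. Points are samples with small digits for the replicate number, and bars give the mean and SD of the 5 shNT and 4 shRNA samples. The shRNA points all lie above the shNT points for Gria2 and all lie below them for Cacng2, and in the other panels the groups overlap.

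Gria2 (ENSMUSG00000033981, mm9 chromosome 3 from 80488858 to 80606713, minus strand) encodes GluA2. Its level was 374, 464, 366, 279.8 and 303 CPM across the shNT replicates (1 to 5, in this order) and 859, 538, 563 and 801 CPM across the shRNA replicates (1 to 4). The groups did not overlap, and the narrowest gap was between shNT replicate 2 and shRNA replicate 2. The shNT mean was 357 ± 72.1 CPM (SD, n = 5) and the shRNA mean 690.3 ± 164 CPM (SD, n = 4), a 1.93-fold difference, or 0.95 ± 0.21 on the log2 scale (fold change ± SE, edgeR FDR = 0.0481). This FDR is close to the threshold. As the groups did not overlap, Gria2 was necessarily higher in each shRNA sample within those named YTa31 (replicates 1 to 3 of both groups). In the set named YTa32 the only shRNA sample, replicate 4, had 801 CPM against 279.8 and 303 CPM.

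The direction of Gria2 held in all 27 alternatives to the processing, with log2 fold changes between 0.61 and 1.06, but it was called in 11 of them. Of these 11, 1 is the reported fit without the 1.5-fold minimum, where no called gene can lose its call. With any 1 of shNT replicates 3, 4 or 5 or shRNA replicates 1, 3 or 4 left out, the FDR of Gria2 lay between 0.0744 and 0.169 and the call was lost. With shNT replicate 2 and shRNA replicate 4 left out together, each the sample of its group with the most reads outside exons, the log2 fold change was 0.99 (FDR = 0.0255), and with the percentage of reads outside exons as a covariate it was 0.67 (FDR = 0.0847, both edgeR quasi-likelihood test). The log2 fold change was 0.62 after removal of each sample's trend with gene span (FDR = 0.0965) and 0.61 after removal of the trend with exon length (FDR = 0.113).

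**Figure D3:**
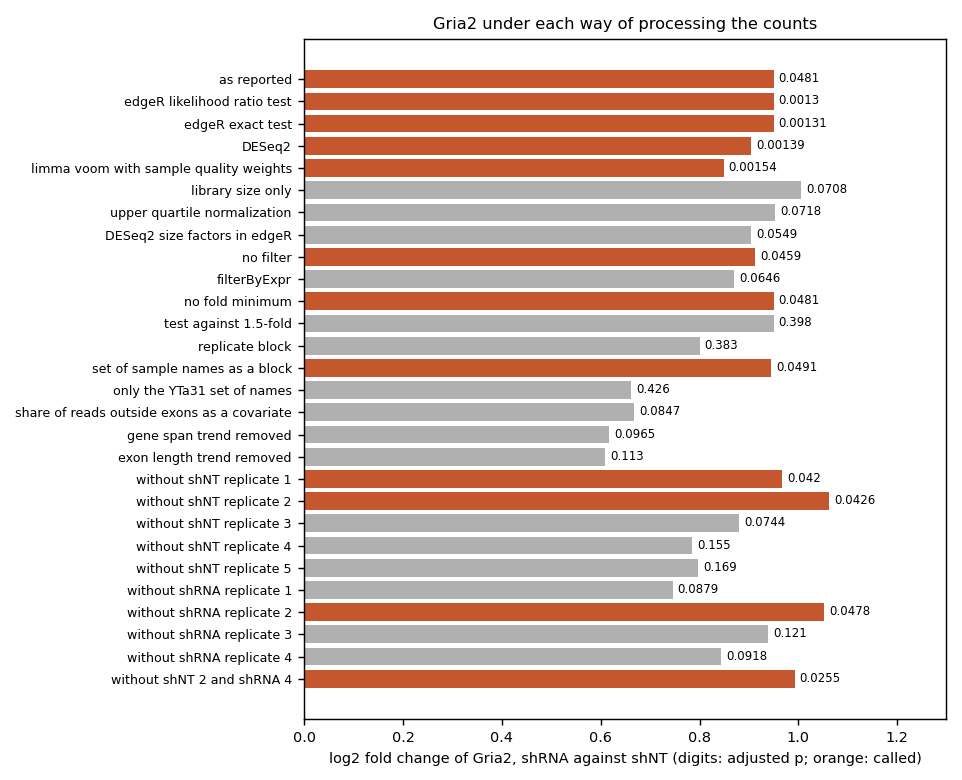
Log2 fold change of Gria2 (shRNA against shNT) as reported and under each alternative to the processing, as orange bars where Gria2 was called and grey bars where it was not, with the adjusted p beside each bar. Every value is above 0, from 0.61 to 1.06, and 11 of the 27 alternatives gave a call.

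Gria1 (ENSMUSG00000020524, mm9 chromosome 11 from 56824889 to 57143746, plus strand) encodes GluA1, the subunit of highest level here. It had 1313, 709, 1465, 1187 and 1039 CPM across the shNT samples and 1022, 1484, 1305 and 803 CPM across the shRNA samples. The ranges of the groups covered nearly the same span, with the lowest values in shNT replicate 2 and shRNA replicate 4. The shNT mean was 1143 ± 289 CPM (SD, n = 5) and the shRNA mean 1154 ± 301 CPM (SD, n = 4), which is 0.01 ± 0.25 on the log2 scale (fold change ± SE, edgeR FDR = 0.974), and the sign turned with DESeq2 size factors.

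Gria3 (ENSMUSG00000001986, mm9 chromosome X from 38754031 to 39031778, plus strand) encodes GluA3. It had 274, 149, 276, 221 and 194 CPM across the shNT samples and 215, 299, 262 and 164 CPM across the shRNA samples, and the groups overlapped. Its log2 fold change came to 0.08 ± 0.23 (SE, edgeR FDR = 0.825). Gria4 (ENSMUSG00000025892, mm9 chromosome 9 from 4417899 to 4796234, minus strand) encodes GluA4, a subunit known for its abundance in PV INs. It had 322, 182, 348, 295 and 267 CPM in the shNT samples and 218, 341, 278 and 141 CPM in the shRNA samples. The groups overlapped here too, and the log2 fold change came to -0.21 ± 0.26 (SE, edgeR FDR = 0.581).

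Gria1, Gria3 and Gria4 varied together from sample to sample. Taken as deviations of log2 CPM from the group means over the 9 samples, Gria1 had a Pearson r of 0.99 with Gria3 and 0.97 with Gria4, whereas Gria2 had r = -0.66 with Gria1, -0.57 with Gria3 and -0.69 with Gria4. These are descriptions without a test, and the points share library, depth and the share of reads outside exons. In both groups the samples with the lowest Gria1, Gria3 and Gria4, shNT replicate 2 and shRNA replicate 4, had the most reads outside exons. Their Gria2 was the highest of the shNT samples, at 464 CPM, and next to the highest of the shRNA samples, at 801 CPM.

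The share of Gria2 in all Gria CPM brings these opposite movements together. It was 16.4%, 30.9%, 14.9%, 14.1% and 16.8% in shNT replicates 1 to 5 and 37.1%, 20.2%, 23.4% and 42.0% in shRNA replicates 1 to 4. Every shRNA sample lay above 4 of the 5 shNT samples, but shNT replicate 2 lay above shRNA replicates 2 and 3, so the groups overlapped. The means were 18.6 ± 6.95% (SD, n = 5) and 30.7 ± 10.5% (SD, n = 4). The difference of 12.1 percentage points did not pass an exact two-sided permutation test over all ways to split the samples into 5 and 4 (p = 0.103). With each subunit divided by its exon length the shares were 17.5 ± 6.68% and 29.1 ± 10.2%, with the same p of 0.103 by this exact test. The level of Gria2 and its share thus fell on different sides of the thresholds of their tests.

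The Gria2 share followed single samples. Without shNT replicate 2 the difference was 15.1 points (exact permutation p = 0.0286). That p is the lowest the test can give for the remaining samples, and it was fixed once the shNT sample that overlapped was left out. Without shRNA replicate 2 or 3 the difference was 15.5 or 14.5 points (exact permutation p = 0.0357 for both). Without shRNA replicate 4 it was 8.29 points (exact permutation p = 0.214), and within the samples named YTa31 it was 6.18 points (exact permutation p = 0.5, where 3 samples against 3 cannot reach 0.05). The 3 samples with the highest Gria2 share, shRNA replicates 4 and 1 and shNT replicate 2, were the 3 with the most reads outside exons. Without shNT replicate 2 and shRNA replicate 4 together, the sample of each group with the most such reads, the difference was 11.4 points (exact permutation p = 0.0286). Again the groups no longer overlapped, and the p was the lowest possible. As log2 odds of Gria2 against the other subunits, all samples included, it was 0.96 log2 units (exact permutation p = 0.0873).

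**Figure D4:**
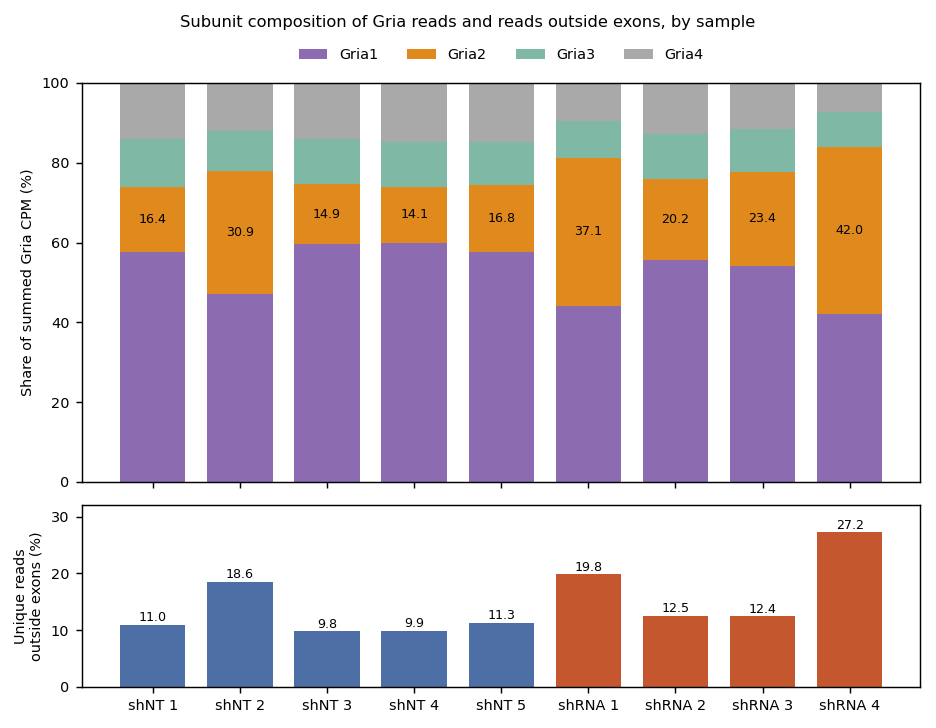
Percentage of all Gria CPM taken by Gria1, Gria2, Gria3 and Gria4 in each of the 9 samples, as stacked bars that sum to 100. Digits give the Gria2 percentage, and the lower panel gives the percentage of unique reads outside exons. Gria1 and Gria2 take nearly the same part in shRNA replicate 4 (42.1% and 42.0%), and the Gria2 part of shNT replicate 2 exceeds those of shRNA replicates 2 and 3.

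The other shares are given without a test. Gria1 made up 56.4 ± 5.28% of all Gria CPM in the shNT samples and 49.04 ± 6.94% in the shRNA samples, and Gria4 14.0 ± 1.14% and 10.3 ± 2.39% (SD, n = 5 and 4). Gria3 took 9.90% to 12.01% in the shNT samples and 8.60% to 11.2% in the shRNA samples. The ratio of Gria2 to Gria1 CPM was 0.285, 0.655, 0.250, 0.236 and 0.291 in the shNT samples and 0.841, 0.363, 0.431 and 0.998 in the shRNA samples, so in shRNA replicate 4 both genes had nearly the same CPM. The summed level of Gria1, Gria3 and Gria4 was 1648 ± 406 CPM in the shNT and 1633 ± 445 CPM in the shRNA samples. The sum of all 4 subunits was 2005 ± 379 and 2323 ± 313 CPM.

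None of the 3 TARPs was called. Cacng2 (ENSMUSG00000019146, mm9 chromosome 15 from 77822178 to 77950458, minus strand) encodes stargazin, the TARP that brings AMPA receptors to the synapse through PSD-95. It had 201, 219, 207, 215 and 228 CPM across the shNT samples and 181, 163, 173 and 76.5 CPM across the shRNA samples. The shRNA samples were all below the shNT samples, and shRNA replicate 4 stood apart from the other 3. The mean was 214 ± 10.5 CPM in the shNT samples and 148 ± 48.4 CPM in the shRNA samples (SD, n = 5 and 4), and the log2 fold change of -0.53 did not pass the test (SE 0.22, edgeR FDR = 0.125). It was -0.33 or lower with each sample left out in turn, and was called in none of the alternatives. With limma voom its FDR was 0.0267, but its log2 fold change of -0.34 was under the 1.5-fold minimum. Exons of another gene cover 5.86% of its exons. Counting without strand cannot separate the reads there, and reads counted as ambiguous were left out.

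Cacng3 (ENSMUSG00000066189, mm9 chromosome 7 from 129815258 to 129912905, plus strand), a related TARP, had 146, 110.4, 157, 159 and 135 CPM in the shNT samples and 121, 129, 118 and 56.8 CPM in the shRNA samples. The groups overlapped, and shRNA replicate 4 again stood apart. Its log2 fold change came to -0.41 ± 0.23 (SE, edgeR FDR = 0.216). Cacng2 and Cacng3 varied together (r = 0.87 within groups over the 9 samples, without a test). Cacng8 (ENSMUSG00000053395, mm9 chromosome 7 from 3394567 to 3415366, plus strand), the TARP best known from hippocampal pyramidal neurons, was near the filter at 1.32 ± 0.266 CPM in the shNT and 1.70 ± 0.258 CPM in the shRNA samples (SD, n = 5 and 4), from 23 to 53 reads a sample. Its log2 fold change of 0.37 had a standard error of 0.27 and did not pass the test (FDR = 0.346).

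The 3 TARPs summed to 357 ± 17.3 CPM in the shNT samples and 256 ± 81.0 CPM in the shRNA samples, of which shRNA replicate 4 had 135 CPM and the other 3 had 292 to 304 CPM. Cacng2 CPM divided by summed Gria CPM was 0.0881, 0.145, 0.0843, 0.109 and 0.127 in the shNT samples and 0.0781, 0.0613, 0.0719 and 0.0401 in the shRNA samples. These ratios did not overlap between groups and are given without a test. Cacng2 alone already did not overlap, and the sum holds Gria2, which did not overlap either. The ratio is therefore no separate support, and no share over all genes was computed for such ratios. The PV IN markers of shRNA replicate 4 were also the lowest of any sample, at 4666 CPM in sum, and their part in the TARP values was not tested.

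The cornichons and Shisa9 did not pass the test. Cnih2 (ENSMUSG00000024873, mm9 chromosome 19 from 5092871 to 5098418, minus strand), the member of highest level per kb, had 406, 506, 354, 443 and 481 CPM across the shNT samples and 396, 331, 363 and 383 CPM across the shRNA samples. The shRNA samples lay in the lower part of the shNT range or below it, and the log2 fold change came to -0.25 ± 0.16 (SE, edgeR FDR = 0.264). Cnih3 (ENSMUSG00000026514, mm9 chromosome 1 from 183282759 to 183390772, plus strand) had 59.0, 47.7, 48.4, 35.6 and 50.7 CPM in the shNT samples and 53.8, 44.6, 42.0 and 47.2 CPM in the shRNA samples. All 4 shRNA values fell inside the shNT range, and the log2 fold change came to -0.04 ± 0.15 (SE, edgeR FDR = 0.864).

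Shisa9 (ENSMUSG00000022494, mm9 chromosome 16 from 11984674 to 12267896, plus strand) was of low level, from 56 to 162 reads a sample. It had 4.44, 2.57, 3.88, 3.28 and 2.45 CPM in the shNT samples and 3.86, 5.76, 3.96 and 4.60 CPM in the shRNA samples. Of the shRNA samples 2 lay above every shNT sample and 2 within the shNT range. The log2 fold change came to 0.45 ± 0.25 (SE, edgeR FDR = 0.216), and did not pass the test.

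**Figure D5:**
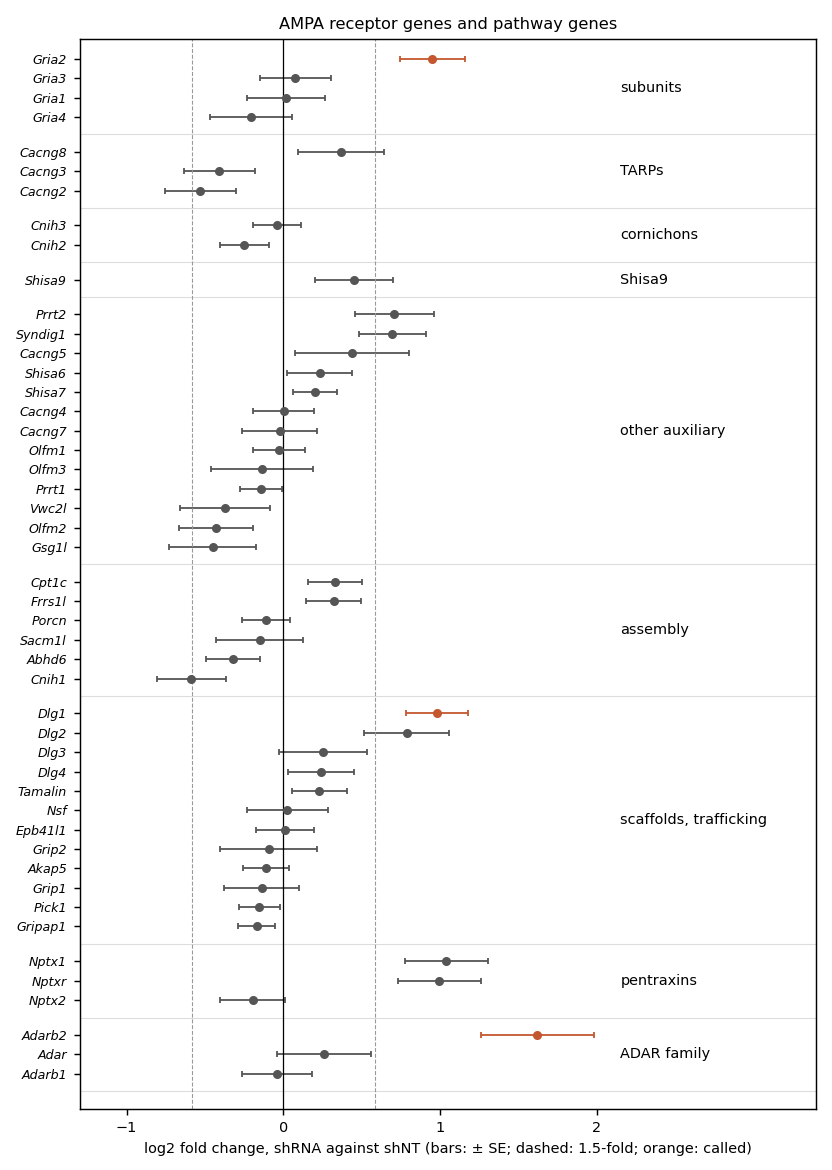
Log2 fold change (shRNA against shNT, edgeR) of the 10 members and of the 37 pathway genes by list, with bars of ± 1 SE, orange points for called genes and dashed lines at 1.5-fold. Gria2 (0.95), Dlg1 (0.98) and Adarb2 (1.62) are called, and most other points lie within 0.6 of 0.

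Other genes of the pathway were read from 5 lists of 38 genes, of which 37 were matched and tested. Of these 2 were called higher, Dlg1 and Adarb2, and 0 lower, against 1.74% and 0.0133% of all genes tested. With no adjustment, p was under 0.05 for 7 higher and 1 lower gene, against 20.7% and 13.4% of all genes. The log2 fold change was positive for 19 of 37 and its median was 0.00, beside 0.11 for all genes. The shRNA samples all exceeded the shNT samples for 6 of the 37, and below for 0, against 8.97% and 6.68% of all genes.

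Among 12 scaffolds, anchors and trafficking adaptors, 1 was called and the median log2 fold change was 0.02. Dlg1, which encodes the GluA1-binding scaffold SAP97, had 29.7, 21.8, 21.4, 17.6 and 16.3 CPM across the shNT samples and 42.9, 34.6, 37.3 and 53.5 CPM across the shRNA samples. The groups did not overlap, and Dlg1 rose by 0.98 on the log2 scale (SE 0.20, edgeR FDR = 0.0414). This call was lost in 15 of the 27 alternatives, and its log2 fold change lay between 0.58 and 1.13 over all of them. Dlg2, which encodes PSD-93, had a log2 fold change of 0.79 and was not called (FDR = 0.0818).

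Of the 3 adenosine deaminases of the family that edits Gria2 RNA, Adarb2 was called. Adarb2, for which no editing activity is known, had 5.76, 6.01, 4.53, 2.57 and 2.35 CPM in the shNT samples and 14.2, 8.17, 8.86 and 21.1 CPM in the shRNA samples, with no overlap and a difference of 1.62 ± 0.36 on the log2 scale (fold change ± SE, edgeR FDR = 0.0497). Its call was lost in 17 of the 27 alternatives, and with shNT replicate 3, 4 or 5 or shRNA replicate 1, 3 or 4 left out its FDR, like that of Dlg1, was between 0.0630 and 0.169. Adarb1, the enzyme that edits the Q/R site, averaged 234 ± 49.3 CPM in the shNT and 228 ± 60.6 CPM in the shRNA samples (SD, n = 5 and 4, log2 fold change -0.04, FDR = 0.905), and was named after its values were seen. Adar had a log2 fold change of 0.26 (FDR = 0.546).

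None of the 3 neuronal pentraxins, which cluster AMPA receptors at excitatory synapses onto interneurons, was called. Their median log2 fold change of 1.00 is the value of Nptxr. Nptx2, named after its values were seen, went the other way at -0.20 (edgeR FDR = 0.513), and its groups overlapped. Nptx1 had 119.5, 76.8, 119.8, 51.3 and 56.8 CPM in the shNT samples and 148, 177, 217 and 156 CPM in the shRNA samples. Nptxr, the pentraxin receptor, had 19.4, 11.4, 22.98, 10.3 and 10.8 CPM and 23.1, 30.8, 37.4 and 28.4 CPM. The groups did not overlap for either gene, and the log2 fold changes of 1.04 and 1.00 missed the threshold (FDR = 0.0594 and 0.0621, edgeR quasi-likelihood test). They were called in 7 and 5 of the 27 alternatives.

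Of 13 other auxiliary and complex proteins 0 were called, and 2 had an unadjusted p under 0.05 (edgeR quasi-likelihood test, median log2 fold change -0.02). These were Prrt2 at 3.16 ± 0.842 and 5.19 ± 0.980 CPM (log2 fold change 0.71, FDR = 0.0883) and Syndig1 at 11.9 ± 3.51 and 19.3 ± 1.13 CPM (log2 fold change 0.70, FDR = 0.0694), for both of which the groups did not overlap. Of 6 proteins of receptor assembly and export from the endoplasmic reticulum 0 were called, with 1, Cnih1, at an unadjusted p under 0.05 and a median log2 fold change of -0.13. Cnih1 had a log2 fold change of -0.59 (FDR = 0.0963) and Cpt1c one of 0.33 (FDR = 0.198).

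The genes whose log2 CPM followed Gria2 most closely over the 9 samples, among 9494 genes with a mean of at least 10 CPM, were Slc4a7 (Pearson r = 0.997), Il1rap (0.988), Cttnbp2 (0.986), Ccnt2 (0.983) and D14Abb1e (0.982). As deviations from the group means the values were 0.987, 0.978, 0.986, 0.947 and 0.937. The genes were picked by their correlation over the same samples, so these values are no separate support for the likeness. Among the members, Cacng8 came closest to Gria2 (r = 0.81 over the 9 samples and 0.68 within groups). These are descriptions over the same 9 libraries, which also share their depth and their reads outside exons.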

How the data were processed

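Ribosome-associated RNA was measured in 5 shNT and 4 shRNA samples. The authors aligned 50 bp reads to mm9 with STAR, used HTSeq 0.6.0 to count unique reads on each gene, ignoring strand, and deposited the counts without normalization, 1 column per sample. The annotation they counted on is not given in the sources used here, and positions, lengths and names come from GENCODE of the same build (37205 of 37620 genes named, 117 of 118 list genes matched, Shisa8 unmatched). Rows for reads outside exons, ambiguous reads (1.36% to 1.78% of unique reads) and multiple alignments were left out of library sizes and tests.

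Genes that reached 1 CPM in 1 or more samples were fitted with edgeR 4.0.16 (TMM, quasi-likelihood test, group only) in R 4.3.3 and adjusted by Benjamini-Hochberg over all of them. The study's methods do not say which edgeR test was run. The biological coefficient of variation was 0.303. Alternatives used DESeq2 1.42.0, limma 3.58.1, other edgeR tests, scalings, filters, blocks and length corrections, and each sample left out in turn. Leaving out shNT replicate 2 with shRNA replicate 4, and shares per coding length, were chosen after seeing the data. The named genes are the members, the called genes and the 2 with the largest change of each pathway list (mean of at least 1 CPM), the 5 most like Gria2, Ablim3 and Pvalb. Members and lists were chosen with earlier results of these data known, Gria2's among them.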

Additional observations from a re-analysis of the deposited data

Results flagged for a closer look

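Of 26 groups of 4 or 5 values, 4 held a sample whose gap to its nearest neighbour was large beside the range of its group (Dixon's test at the 95% level), where chance flags about 1 in 20 groups, or 1.3 here. Cacng2 was 76.5 CPM in shRNA replicate 4 and 163 to 181 CPM in the other shRNA samples. Cacng3 was 56.8 CPM in shRNA replicate 4 and 118 to 129 CPM in the other shRNA samples. The Gria2 share of all Gria CPM was 30.9% in shNT replicate 2 and 14.1% to 16.8% in the other shNT samples. The same sample had 18.6% of its unique reads outside exons, where the other shNT samples had 9.76% to 11.3%. The values that stood apart came from the sample with the most reads outside exons in each group.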

How the results depend on the processing

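The log2 fold change of Gria2 stayed positive in 27 alternatives. It was not called, so that 0 members and 0 pathway genes were called higher, with scaling by library size only (1.01, FDR = 0.0708), upper quartile normalization (0.95, FDR = 0.0718), filterByExpr (0.87, FDR = 0.0646), a test against 1.5-fold (0.95, FDR = 0.398), the YTa31 samples alone (0.66, FDR = 0.426), the reads outside exons as a covariate (0.67), or the trend with gene span (0.62) or exon length (0.61) removed. With DESeq2 size factors in edgeR it was 0.91 (FDR = 0.0549), with 0 members and 1 pathway gene called. The numbers of called members are thus 1 or 0, with 0 lower throughout. With each sample left out in turn its log2 fold change ran from 0.75 to 1.06, members called higher from 0 to 1 and pathway genes called higher from 0 to 5 (5 without shNT replicate 1). Pathway genes called higher were 6 with the likelihood ratio test, the exact test and DESeq2 and 8 with limma voom, and DESeq2 called 1 lower. The cause of these changes was not tested.

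Over all genes, 262 were called higher and 2 lower. These counts were 1688 and 542 with the likelihood ratio test, 1659 and 534 with the exact test, 1532 and 833 with DESeq2, 2301 and 618 with limma voom and 501 and 14 without a filter. They were 199 and 1 with DESeq2 size factors in edgeR and 678 and 2 without shNT replicate 2 and shRNA replicate 4 together. They were 0 and 0 in edgeR with the other scalings, filterByExpr, the test against 1.5-fold, the YTa31 samples alone, the covariate and either trend removed, where 996 to 3071 genes were higher at an unadjusted p under 0.05 and 60 to 2571 lower. With each sample left out in turn they ran from 0 to 1007 and from 0 to 410.

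The reported fit did not pair samples by replicate number, and the labels do not say whether the numbers mark pairs. Deviations of same-numbered samples from their group means correlated at -0.27, -0.64, 0.49 and -0.18, and not every sample correlated best with its own number. Such correlations cannot show whether same-numbered samples were handled together. With the replicate block, Gria2 had a log2 fold change of 0.80 (FDR = 0.383), 0 members and 0 pathway genes were called, 34 genes in all were higher and 0 lower, and the Gria2 share differed by 11.6 points, or 11.2 per kb of exon (exact sign-flip p = 0.375, where 4 pairs cannot go below 0.125).

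Uncalled genes near 0 changed sign. Gria1 was -0.026 with DESeq2 or its size factors, -0.023 without a filter, -0.043 with filterByExpr, -0.11 with the replicate block, -0.049 with the name set as a block, -0.37 with the gene span trend and -0.25 with the exon length trend removed, and -0.13 to 0.15 with each sample left out. Gria3 was -0.058 with the replicate block, -0.29 and -0.34 with those trends removed and -0.060 to 0.21 with each sample left out. Gria4 was 0.23 with reads outside exons as a covariate, Cnih3 0.011 with library size only and -0.21 to 0.040 with each sample left out, and Cnih2 and Adar 0.049 and -0.030 with the exon length trend removed.

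The difference in the Gria2 share ran from 8.29 to 15.5 points with each sample left out in turn, and from 7.98 to 15.0 points per kb of exon, with p from 0.0286 to 0.214 (exact permutation test). Without shNT replicate 2 and shRNA replicate 4 together it was 11.4 points, or 10.9 per kb of exon (exact permutation p = 0.0286, the lowest possible there). On the log2 odds scale it was 0.96 log2 units (exact permutation p = 0.0873). Cacng8 had 23 to 53 reads a sample and Shisa9 56 to 162.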
